A study of Mus musculus with 6 samples.

Results

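The ovary comparison set 1 microarray of ovaries from mice given BHPF against 1 array of ovaries from control mice, 2 of the 6 arrays of the series, whose other arrays hold liver and uterus. The arrays were chosen by their tissue label alone. BHPF, fluorene-9-bisphenol, is a substitute for bisphenol A in plastics, and the study asked whether it acts against oestrogen in immature female mice. The mice were female CD-1, an outbred stock, 24 days old according to the labels, and they received either BHPF at 50 mg/kg or the peanut oil in which it was dissolved, by gavage once a day for 3 days. The sources used here do not settle whether 24 days was their age at the first dose or at the collection of tissue. RNA from the ovaries of 3 mice of a group was pooled before labelling with the dye Cy3, and each pool was hybridized to 1 one-colour array. No animal was measured on its own, so no test was possible, and every difference below is a difference between 2 arrays. A difference was called from 2-fold upwards, which is a rule of size and not of significance.

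The immature ovary is filled with growing follicles, in which an oocyte is surrounded by granulosa cells and, outside a basement membrane, by theca cells. Theca cells make androgens, and granulosa cells turn these into oestrogens under the control of follicle-stimulating hormone. Between the follicles lie stroma, blood vessels and resident macrophages, a surface epithelium covers the organ, and the oviduct and the fat of the ovarian bursa lie against it, so that a dissected ovary can carry cells of both.

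The level of a probe is the log2 of its intensity minus the 75th percentile of all probes on the same array, so that 0 stands for the 75th percentile. The log2 ratio is the level with BHPF minus the level in controls. Of 55681 probes, 74.5% were well above background in controls and 69.3% with BHPF. The lowest intensity that passed as such was 93.3 in controls and 120 with BHPF. A gene well above background on 1 array only was compared with its own level on the other array, or with that lowest intensity where its own was lower. Its difference is written as at least so much. Spots of 1 probe repeated on an array differed with an s.d. of 0.10 in controls and 0.09 with BHPF on the log2 scale, which gives 0.13 for a log2 ratio. This noise leaves out the difference between pools. All arrays lay on 1 slide, each at a position of its own, so position and treatment cannot be told apart. In the table of log2 values that the authors also deposited, both ovary columns matched the scanner values of their own array for 100% of 41674 probes within 0.001. The columns headed as control and BHPF uterus were instead exchanged, each matching the array labelled as the other group for 100% of 38802 probes, so each uterus value below rests on the label of its scanner file.

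The labelled tissue was checked against 19 genes that define granulosa cells, theca cells, steroid synthesis and oocytes. All 19 were well above background on both ovary arrays. On the control arrays 13 of them were at least 4-fold brighter in ovary than in liver and 14 at least 4-fold brighter in ovary than in uterus. The probe of *Esr2* was as bright on the control liver array, at a level of 3.51, as on the control ovary array, at 3.45, and the probes of *Foxl2* were brighter in liver, at 1.27 against 0.71. In control uterus *Esr2* was at 3.17 and *Foxl2* at 0.54, so the level of these 2 genes did not set the ovary apart from either tissue. *Scarb1* (1.77 in liver, 1.12 in ovary) and *Ptch1* (−2.99 in liver, −3.43 in ovary) were also brighter in control liver.

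Most genes of the ovary differed little between the arrays. Of 41674 probes evaluated, 531 (1.27%) were called, 284 (0.681%) for a higher and 247 (0.593%) for a lower level after BHPF. Averaged by gene symbol, the probes gave 16862 genes, of which 184 (1.09%) differed by at least 2-fold, 80 (0.474%) being higher and 104 (0.617%) lower. The median log2 ratio of all genes was 0.01, with quartiles of −0.11 and 0.13, and 85.6% of the genes lay within 0.3 of 0. Called genes were mostly dim. When the genes detected in both pools were divided by level into 5 classes of 3151 or 3152 genes, the dimmest class held 68 called genes and the brightest held 1.

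**Figure D1:**
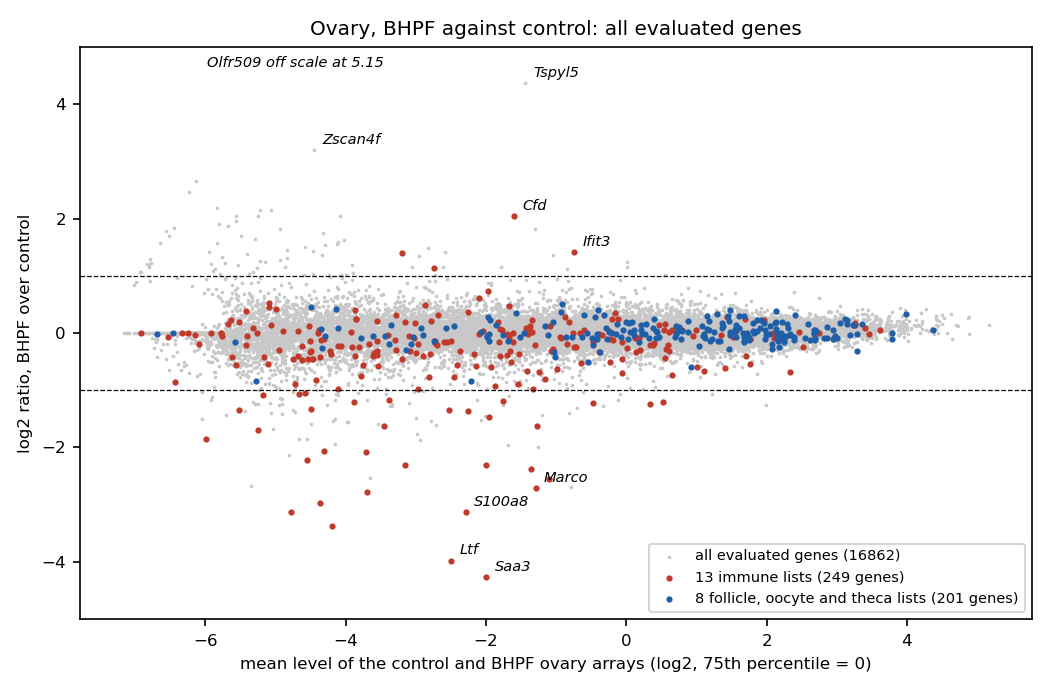
Log2 ratio of every evaluated gene (vertical axis, BHPF over control) against the mean of its levels on both ovary arrays (horizontal axis, log2, 75th percentile = 0), with dashed lines at 2-fold. Genes of the 8 follicle, oocyte and theca lists (blue, 201 genes) all lie between the dashed lines, and 33 of the 249 genes of the 13 immune lists (red) lie below them.

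The genes of the follicle stayed within 2-fold. Of the 203 genes in 8 lists for granulosa cells, follicle growth factors, the ovulatory response, theca cells, steroid synthesis, oocytes, the cell cycle and follicular cell death, 201 were evaluated and 0 were called. Their median log2 ratio was 0.00, beside 0.01 over all genes. Over all genes 1.09% were called, and fewer in the brighter classes, so 0 of 201 lies near the general share. The lowest ratio of the 201 was that of *Akr1c18*, which breaks down progesterone, at −0.84. The highest was that of *Ptx3*, a matrix protein of the cumulus, at 0.50.

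Granulosa cell genes lay close to 0. All 20 on the list were evaluated, with a median of 0.05, and 7 were below 0. *Fshr*, the receptor of follicle-stimulating hormone, had a level of 2.04 in controls and 2.23 with BHPF, a log2 ratio of 0.19. *Amh*, the anti-Muellerian hormone of small growing follicles, was at −1.14 and −0.95, a ratio of 0.19. *Inha*, the inhibin alpha subunit that feeds back on the pituitary, was at 4.35 and 4.4, a ratio of 0.05. These 3 genes were slightly brighter with BHPF, none of them by more than 0.2 on the log2 scale. *Foxl2*, a transcription factor that maintains granulosa identity, had a ratio of 0.02, and *Esr2*, the oestrogen receptor of granulosa cells, one of −0.32. The probes of both were about as bright in liver and uterus, so these ratios cannot be assigned to granulosa cells. *Cyp19a1*, the aromatase that makes oestrogens, had a ratio of −0.27, and *Hsd17b1*, which converts oestrone into oestradiol, one of 0.16. The last 2 genes, named after their values were seen, differed in sign.

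Among the growth factors, receptors and binding proteins of the follicle, 35 genes had a median of −0.04 and 0 were called. *Igf1*, a growth factor of granulosa cells, had a ratio of 0.07, and its receptor *Igf1r* one of −0.09. The bone morphogenetic proteins *Bmp2* and *Bmp6* were at −0.11 and −0.14. The lowest of the list was *Id1*, a target of such signals, with levels of 1.22 and 0.63 and a ratio of −0.59.

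The ovulatory and luteal list holds genes that gonadotrophins switch on in large follicles, and several of them were dim on both arrays. *Ptgs2*, the prostaglandin synthase of ovulation, was at −6.01 in controls and not well above background with BHPF, and no difference could be given. *Has2*, which makes the hyaluronan of the cumulus, was at −4.39 and −4.32. *Pgr*, the progesterone receptor, was at −3.73 and −3.82. None of the 20 genes of this list was called, and their median was −0.04.

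Theca cell and steroid genes also lay near 0. *Cyp17a1*, which makes androgens in theca cells, was at 3.84 and 3.74, and *Lhcgr*, the receptor of luteinizing hormone, at −0.60 and −0.67. *Ptch1* and *Gli1*, which respond to the hedgehog ligands that granulosa cells send to the theca, had ratios of 0.15 and 0.31. The median of the 13 theca genes was 0.15, and 4 of them were below 0. Of 20 steroid synthesis genes 0 were called, with a median of −0.02. *Cyp11a1*, which cuts the side chain of cholesterol, was at 3.00 and 2.90, *Hsd3b1* at 3.78 and 3.79, and *Nr5a1*, the master regulator of steroid genes, at 2.68 on both arrays. *Star*, which carries cholesterol into mitochondria, had the lowest ratio of the list, −0.51, with levels of −0.29 and −0.80. Its 2 probes differed, at −0.97 and −0.06, so the size of this difference depends on the probe.

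Oocyte genes lay close to 0 as well. All 36 were evaluated, with a median of −0.00, quartiles of −0.12 and 0.09, a lowest ratio of −0.29 and a highest of 0.38. *Zp3*, a protein of the zona pellucida, was at 2.69 in controls and 2.73 with BHPF. *Gdf9* and *Bmp15*, growth factors that the oocyte sends to granulosa cells, had ratios of 0.32 and 0.01. *Nobox* and *Figla*, transcription factors of early oocytes, had ratios of −0.13 and 0.09. No oocyte gene therefore differed by as much as 0.4 on the log2 scale.

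**Figure D2:**
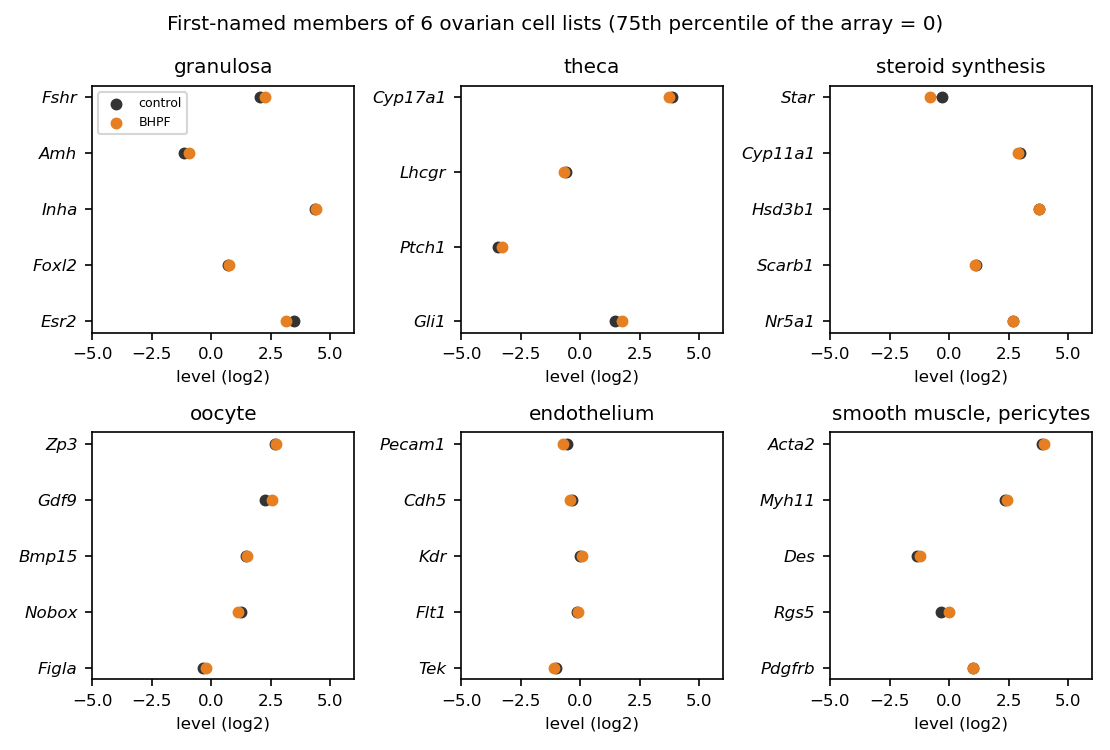
Levels (horizontal axes, log2, 75th percentile = 0) of the first-named members of 6 lists of ovarian cells and functions on the control array (black) and the BHPF array (orange). Each point is 1 pool of 3 mice, and in every row the points lie less than 2-fold apart.

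Cell cycle genes, which follow the division of granulosa cells, had a median of 0.01 over 38 genes, with *Mki67* at 0.17 and *Top2a* at 0.01. Cell death genes of the follicle had a median of 0.09 over 20 genes. Among them *Bax* and *Bcl2*, which promote and oppose death at the mitochondrion, had ratios of 0.20 and 0.36.

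Vessels, stroma and the ovarian surface resembled the follicle. Of 104 genes in 5 lists for these parts, 102 were evaluated and 0 were called, against 1.09% of all genes, with a median of 0.03. *Pecam1* and *Cdh5*, junction proteins of endothelial cells, had ratios of −0.17 and −0.09, and *Kdr*, the main receptor of vascular endothelial growth factor, was at −0.03 and 0.08, a ratio of 0.10. *Vegfa*, its ligand, had a ratio of 0.08. The smooth muscle genes *Acta2* and *Myh11* had ratios of 0.07 and 0.08, and the collagens *Col1a1* and *Col3a1* of the stroma had −0.09 and 0.05. The extremes were *Kcnj8*, a potassium channel of pericytes, at −0.67 and *Sox18*, an endothelial transcription factor, at 0.57.

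Oestrogen receptors and oestrogen-responsive genes had a median of −0.01 over 19 genes, and 2 of them fell. *Esr1*, oestrogen receptor α, was at −1.57 and −1.60, and *Greb1*, a direct target of it in many tissues, at 2.56 and 2.73. The genes that fell were *Ltf* (−3.98), which encodes lactoferrin, and *Sprr2f* (−2.54), which encodes a small proline-rich epithelial protein. Of the 2 probes of its relative *Sprr2a2*, one was lower by a bound, with a ratio of −1.63 or below, and the other was at 0.18, and *Sprr2g*, not well above background with BHPF, had a ratio of −0.65 or below. With own values in place of bounds 5 genes of the list were at least 2-fold lower. *Ltf* is also a neutrophil granule gene and stands on that list too.

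**Figure D3:**
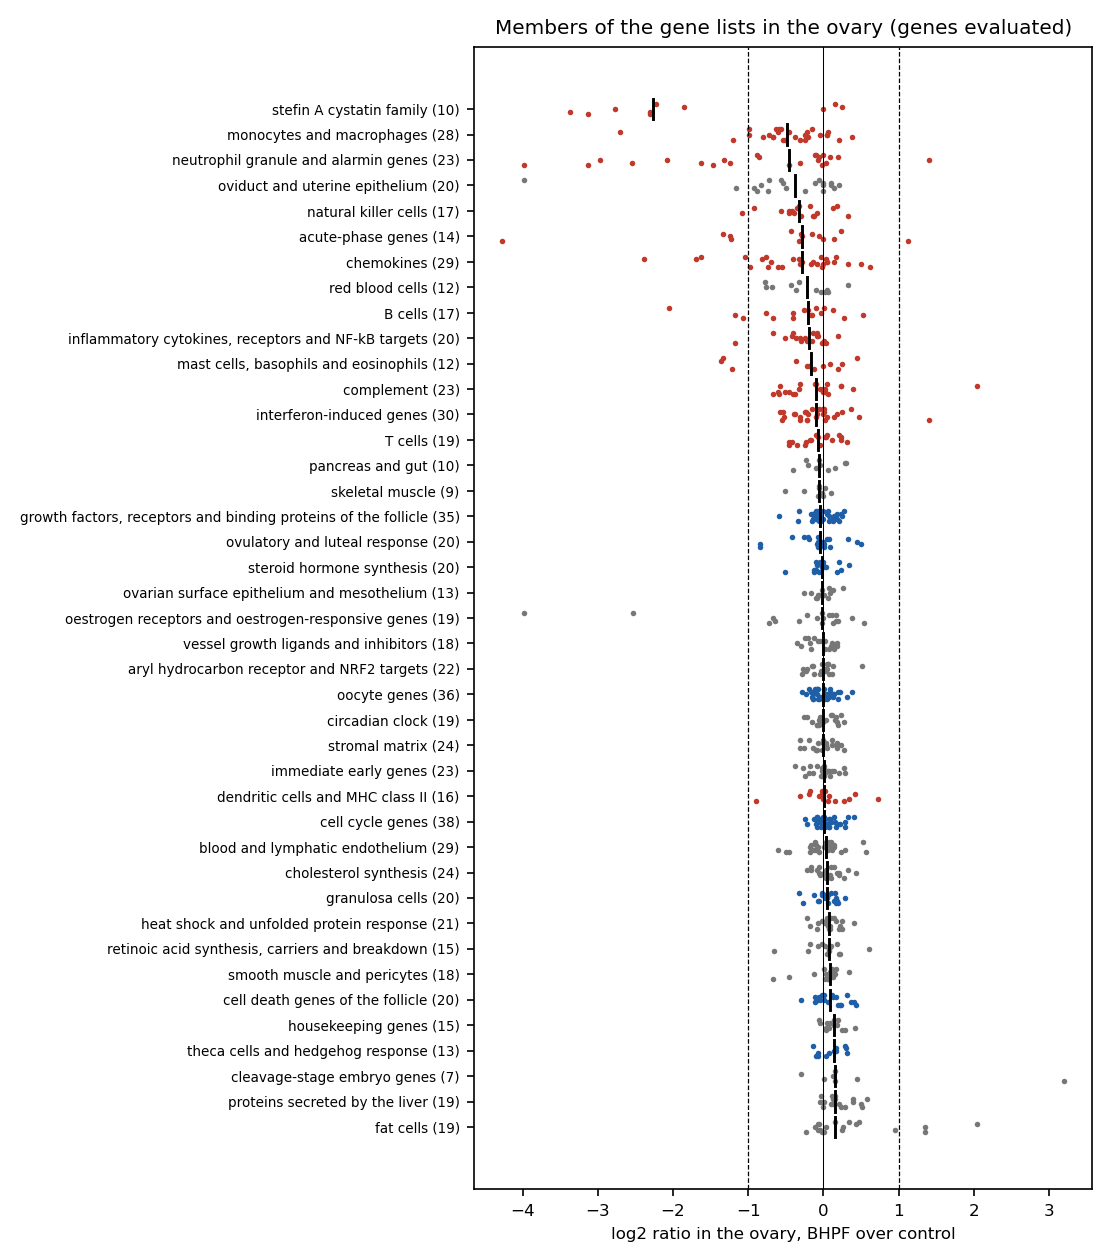
Log2 ratio in the ovary (horizontal axis, BHPF over control) of the evaluated members of 41 gene lists, with the number of genes in parentheses, a black bar at each median and dashed lines at 2-fold. Follicle, oocyte and theca lists (blue) lie around 0, and the immune lists (red) hold most of the points below −1.

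Immune genes made up 31.7% of all the genes that fell. Of the 300 genes in 13 immune lists, 249 were evaluated. Of these, 33 (13.3%) were at least 2-fold lower, against 0.617% of all genes, and 4 were higher. Their median was −0.18, and 173 of them were below 0. The same 0.617% is the share to set beside the falls of each immune list below. The lists were chosen with earlier results of these data known, so the contrast with all genes is no test. Among the 33 are 7 related stefin genes. Some of the 33, such as *Stfa2* and *Chil3*, were well above background in controls only. Fewer cells of a type and less RNA per cell cannot be told apart in a pool of whole ovaries.

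Among genes detected in both pools whose probes all lay on 1 side of 0, 11 of the 15 largest falls and 2 of the 15 largest rises were on the immune lists. *Tspyl5*, with a mean ratio of 4.36 from probes at −0.02 and 8.74, was left out by this rule. *Saa3*, an acute-phase protein made by macrophages and epithelia, was at 0.14 in controls and −4.13 with BHPF, a 19.3-fold fall. *Ltf* was at −0.50 and −4.48, a 15.8-fold fall. *S100a8* and *S100a9*, the subunits of the calcium-binding protein calprotectin of neutrophils, were at −0.72 and −3.85 and at 0.18 and −2.37, with falls of 8.75-fold and 5.85-fold. In controls these 4 genes were close to the 75th percentile of the array, and with BHPF all 4 were far below it. *Marco*, a scavenger receptor of macrophages, was at 0.06 and −2.65, a 6.53-fold fall. *Cxcl13*, the chemokine that draws B cells, was at −0.17 and −2.55, a 5.22-fold fall. These 2 genes likewise started near the 75th percentile.

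Outside those lists, *Pirb*, an inhibitory receptor of myeloid and B cells, was at −0.71 and −2.67, a 3.90-fold fall. *Slc13a3*, a carrier of dicarboxylates, was at 0.56 in controls and −2.13 with BHPF, a 6.49-fold fall, with log2 ratios of −0.04 in liver and −0.14 in uterus. *Hopx*, a homeodomain protein without DNA binding of its own, was at −0.26 and −2.26, and its 2 probes fell by 1.90 and 2.10 on the log2 scale, with ratios of 0.05 in liver and 0.01 in uterus. The last 2 genes differed in the ovary and stayed within 2-fold in the other tissues, a contrast that was not tested. *Mmp7*, a matrix protease of epithelia, was at −3.06 in controls and not well above background with BHPF, a fall of at least 6.40-fold.

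**Figure D4:**
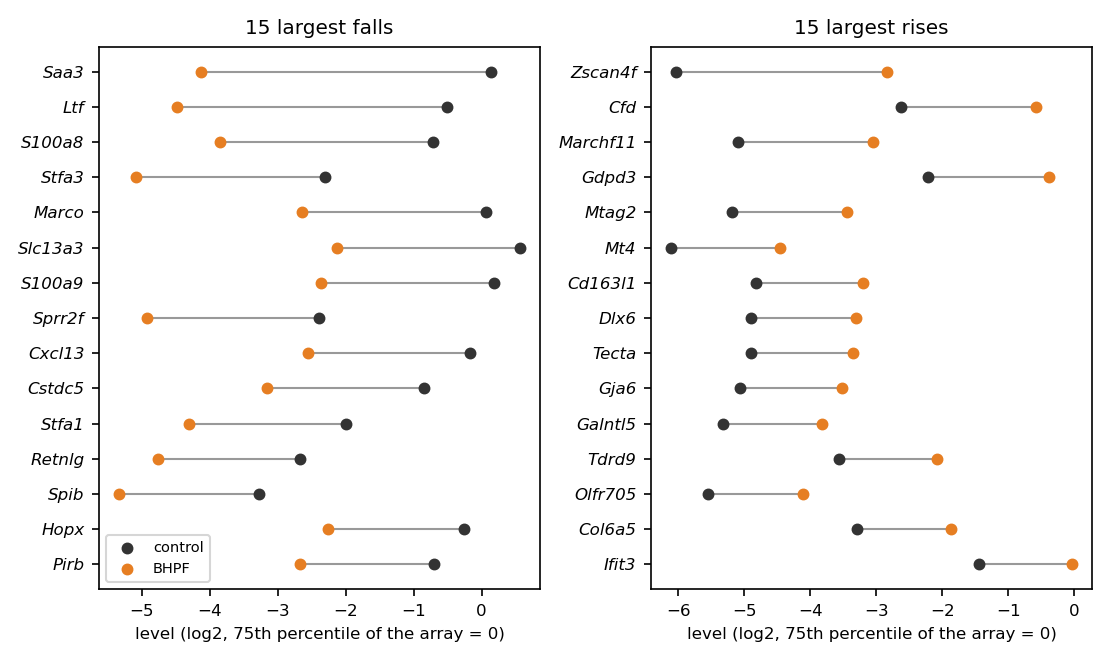
Levels (horizontal axes, log2, 75th percentile = 0) on the control array (black) and the BHPF array (orange) of the 15 genes with the largest fall (left) and the 15 with the largest rise (right), among genes detected in both pools whose probes all lay on 1 side of 0, which leaves out *Tspyl5*. The falls start from control levels up to 0.56, and 10 of the 15 rises start below −4.

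Promoters of genes at both ends are shown because the study concerned oestrogen and many of the largest falls were of myeloid or acute-phase genes. Windows of 300 bases, from 250 before to 50 after the gene start, were read from RefSeq for GRCm38.p6 and searched on both strands for 4 motifs. These were the palindromic oestrogen response element (GGTCA, any 3 bases, TGACC), the C/EBP motif TTGCNNAA of factors that act in myeloid cells and the acute phase, the NF-kB motif (GGGA, any base, TT, any base, CC) and the TATA box TATAAA, where N is any base. Capitals mark the matches, each printed 5′ to 3′ on the strand of the gene.
Saa3, chr7:46715627-46715926, minus strand: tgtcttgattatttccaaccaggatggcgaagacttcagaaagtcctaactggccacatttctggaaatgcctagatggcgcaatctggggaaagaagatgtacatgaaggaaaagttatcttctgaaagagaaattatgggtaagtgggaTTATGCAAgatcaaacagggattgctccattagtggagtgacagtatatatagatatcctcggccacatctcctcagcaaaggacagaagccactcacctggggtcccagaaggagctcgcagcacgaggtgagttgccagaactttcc
Ltf, chr9:111019042-111019341, plus strand: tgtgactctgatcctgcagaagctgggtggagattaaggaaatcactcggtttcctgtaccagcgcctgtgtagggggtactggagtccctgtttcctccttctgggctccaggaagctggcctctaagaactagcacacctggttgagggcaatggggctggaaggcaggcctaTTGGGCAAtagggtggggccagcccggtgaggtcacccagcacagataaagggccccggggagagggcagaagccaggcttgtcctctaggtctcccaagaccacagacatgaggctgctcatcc
S100a9, chr3:90695672-90695971, minus strand: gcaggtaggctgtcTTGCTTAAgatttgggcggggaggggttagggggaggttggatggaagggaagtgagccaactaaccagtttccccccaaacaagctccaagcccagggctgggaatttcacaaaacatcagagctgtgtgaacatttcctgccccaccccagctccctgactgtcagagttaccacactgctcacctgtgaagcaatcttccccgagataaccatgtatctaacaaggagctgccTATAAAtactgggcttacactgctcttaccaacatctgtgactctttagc
S100a8, chr3:90668821-90669120, plus strand: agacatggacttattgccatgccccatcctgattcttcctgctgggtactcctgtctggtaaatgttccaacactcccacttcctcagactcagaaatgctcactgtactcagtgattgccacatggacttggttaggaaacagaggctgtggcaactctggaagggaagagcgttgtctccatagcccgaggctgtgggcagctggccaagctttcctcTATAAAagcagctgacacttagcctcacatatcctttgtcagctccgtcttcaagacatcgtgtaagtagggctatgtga
Zscan4f, chr7:11397665-11397964, plus strand: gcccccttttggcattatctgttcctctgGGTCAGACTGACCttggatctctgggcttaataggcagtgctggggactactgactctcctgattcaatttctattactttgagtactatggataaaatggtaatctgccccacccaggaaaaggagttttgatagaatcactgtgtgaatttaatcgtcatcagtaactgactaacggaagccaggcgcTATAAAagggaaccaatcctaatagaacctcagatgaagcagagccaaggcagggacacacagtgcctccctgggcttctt

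A C/EBP match stood in the windows of 8 of the 15 largest falls, *Saa3*, *Ltf*, *S100a9*, *Cxcl13*, *Retnlg*, *Spib*, *Stfa1* and *Cstdc5*, and in 0 of the 14 rises with a window, against 10.8% of all 32851 promoters. *Stfa1* and *Cstdc5* are copies from 1 gene cluster, so their windows are not separate cases. The oestrogen response element stood in 0 of the falls and in 1 of the rises, that of *Zscan4f*, against 0.0700% of all promoters. At so low a share, 0 matches do not set the falls apart from other genes. Only the exact palindrome in these 300 bases was searched, so other forms or sites further away were not looked for. The NF-kB motif stood in 0 of either, against 1.20% of all promoters. A TATA box stood in 4 falls and 2 rises, against 13.6% of all. A match describes these letters only, and binding was not measured.

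Neutrophil granule and alarmin genes had a median of −0.45 over 23 evaluated genes, of which 9 fell, 1 rose and 18 were below 0. The median was −1.24 with 12 falls when own values replaced bounds, and −1.06 with 13 falls when dim probes were kept. *Retnlg*, a resistin-like secreted protein of neutrophils, was at −2.67 and −4.76, a 4.24-fold fall. *Chil3*, a chitinase-like protein of myeloid cells, was at −2.77 in controls and not well above background with BHPF, a fall of at least 7.82-fold. *Fpr1* and *Fpr2*, receptors for bacterial peptides, fell by 1.47 and 1.63 on the log2 scale, and the ratio of *Fpr2* was −0.99 with normexp background correction. *Padi4*, an enzyme of neutrophil extracellular traps, went the other way, from −3.90 to −2.49, a 2.64-fold rise. The summed level of the 23 genes, in units of the 75th percentile, was 27.3 in controls and 24.0 with BHPF. Without the 2 brightest members, *Csf3r* (3.47 and 3.46) and *Trem1* (3.35 and 3.44), it was 6.05 and 2.10 over 21 genes. Among the defining markers *Mpo* was not well above background on either array.

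Stefin A cystatins, inhibitors of cysteine proteases that neutrophils and epithelia express, made up a list of which 10 genes were evaluated. Of these 7 fell, with a median of −2.26, and the other 3 lay between −0.01 and 0.24. *Stfa1* was at −2.0 and −4.30, *Stfa3* at −2.31 and −5.08 and *Cstdc5* at −0.85 and −3.16, and *Stfa2*, at −2.36 in controls and not well above background with BHPF, fell at least 10.4-fold. These genes have similar sequences, so a probe may also bind RNA of a related copy, and they are not independent measurements. Over the 6 of them detected in both pools the median was −1.16.

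Monocyte and macrophage genes had a median of −0.49 over 28 genes, with 23 below 0 and 2 called. *Adgre1*, the F4/80 antigen, was at 1.12 and −0.08, a 2.30-fold fall that both of its probes showed. *Csf1r*, the receptor on which macrophages depend, had a ratio of −0.20, and *Mrc1*, the mannose receptor of resident macrophages, one of −0.04. *C1qa*, a complement subunit made by macrophages, was at 1.71 and 1.1, a ratio of −0.61, and *Lyz2*, lysozyme, at 2.67 and 2.0, a ratio of −0.67. The defining markers *Adgre1*, *Csf1r*, *Mrc1* and *C1qa* were thus all present on both arrays, with ratios between −0.04 and −1.20, and *Cd68* was not matched to a probe. The summed level of the list was 39.4 in controls and 27.7 with BHPF.

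Receptor families of myeloid cells were taken by the start of their symbols after values had been seen. *Pira2* and *Pirb*, the 3 *Sirpb1* genes and the 4 *Ear* genes fell, the latter between −1.36 and −1.17. *Ear* genes encode ribonucleases of eosinophils and macrophages. Genes of 1 family are related, so a probe may also bind RNA of a relative, and these falls may not be independent measurements. *Clec4* lectins had a median of −0.78 over 8 genes, of which 2 fell, and *Ms4a* genes a median of −0.53 over 13, of which 1 fell. *Fcgr4*, an activating antibody receptor, fell by 1.26 on the log2 scale, and the other 3 *Fcgr* genes were between −0.31 and −0.01. Of 5 *Trem* genes 0 were called and 2 were below 0, with ratios between −0.46 and 0.50.

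Genes of antigen presentation had a median near that of all genes. Dendritic cell and MHC class II genes had a median of 0.01 over 16 genes. Of them 0 were called, near the 1.09% of all genes. *H2-Aa*, a chain of an MHC class II molecule, which presents peptides to T cells, was at 0.28. *Cd74*, which chaperones such molecules, was at 0.34. *H2-Eb1* had the highest ratio, 0.73, and *Clec9a*, a receptor of dendritic cells for dead cells, the lowest, −0.89. T cell genes had a median of −0.07 over 19 genes, with *Cd3e* at −0.25 and 0 called, near the 1.09% of all genes. B cell genes had a median of −0.20 over 17, of which 3 fell. *Spib*, a transcription factor of B cells and plasmacytoid dendritic cells, was at −3.28 and −5.33, a 4.15-fold fall, *Cd79b*, a subunit of the B cell receptor, fell by 1.18 on the log2 scale and *Pou2af1*, a B cell coactivator, by 1.07. With normexp *Cd79b* was at −0.92 and *Pou2af1* at −0.38, under 2-fold. Natural killer cell genes had a median of −0.32 over 17, of which *Klrg1* fell at least 2.12-fold, though its ratio was −0.55 with normexp.

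Chemokines, which recruit leukocytes, had a median of −0.28 over 29 genes, of which 4 fell and 0 rose. Besides *Cxcl13* these were *Ccl8*, which draws monocytes and lymphocytes, with levels of −0.45 and −2.08, *Ccl28*, an epithelial chemokine that was at −4.04 in controls and fell at least 3.24-fold, and *Cxcl17*, with −4.05 and −5.10 (−0.73 as a ratio with normexp). *Cxcl12*, the chemokine of stromal cells, had a ratio of 0.05, and *Ccl2*, the main monocyte attractant, one of −0.60. Of 20 inflammatory cytokines, receptors and NF-kB targets 16 were below 0 and 1 fell, *Il1b*, from −2.80 to −3.97 (−0.97 as a ratio with normexp). Mast cell, basophil and eosinophil genes had a median of −0.16 over 12, with *Cpa3* and *Cma1*, proteases of mast cells, at 0.20 and 0.24, and 3 falls, all of them *Ear* genes.

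Serum amyloid genes split. *Saa3* and *Saa1* were lower, by 4.27 and 1.22 on the log2 scale, and *Saa2* was at −3.31 in controls and −2.18 with BHPF, a 2.19-fold rise (0.85 as a ratio with normexp). *Saa1* and *Saa2* are near-identical copies. *Lcn2*, an iron-binding protein of neutrophils and epithelia, was at 0.96 and −0.28, a 2.35-fold fall, and *Hp*, haptoglobin, at 0.02 and −0.14. Complement genes had a median of −0.09 over 23, with *C3*, the central component, at −0.67 and 1 called, *Cfd*. Among interferon-induced genes, 30 evaluated with a median of −0.09, *Ifit3* rose 2.65-fold, from −1.44 to −0.03, and *Ifit1* and *Isg15* were at −0.31 and −0.52. The 6 *Ifit* genes had a median of 0.41, and 1 of them was below 0.

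Oviduct and uterine epithelium had a lower median than the ovarian surface. Of 20 genes evaluated, 15 were below 0, with a median of −0.37. Of them 2 fell, *Ltf* and *Foxj1*, against 0.617% of all genes. *Foxj1*, the regulator of motile cilia, was at −3.11 and −4.28, a 2.24-fold fall that came out just under 2-fold with normexp. *Ovgp1*, the oviductal glycoprotein, was at −0.84 and −1.58, a ratio of −0.74, while *Epcam*, a protein of many epithelia, was at −0.66 and −0.67, and *Pax8* was not well above background with BHPF. Ciliary genes named by the start of their symbols after values had been seen had medians of −0.19 over 24 *Cfap* genes, of which 20 were below 0, −0.17 over 7 *Rsph* genes, of which 6 were below 0, and −0.02 over 8 *Dnah* and *Dnai* genes, of which 5 were below 0 and 1, *Dnah8*, rose (1.15). Of all genes 46.2% were below 0. The ovarian surface list had a median of −0.02 over 13 genes, with *Krt8* at 0.06 and *Upk3b* at 0.12. The summed level of the 20 oviduct genes was 7.77 in controls and 6.35 with BHPF. This sum includes *Ltf*, also on the neutrophil list, which was at −0.50 and −4.48. The part of attached oviduct in the differences was not tested.

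Fat cell genes held 3 of the rises, 3 of 19 evaluated, against 0.474% of all genes. *Cfd*, adipsin, a complement protease secreted by fat cells, was at −2.63 in controls and −0.58 with BHPF, a 4.13-fold rise. *Adipoq*, adiponectin, was at −3.62 and −2.27, a 2.55-fold rise, and *Car3*, a carbonic anhydrase of fat and muscle, at −1.73 and −0.37, a 2.56-fold rise. The other fat cell genes did not follow them as a group. *Plin1*, the coat protein of lipid droplets, was at −1.0 and −1.08, *Fabp4*, a fatty acid carrier, at 1.15 and 1.19, and *Lep*, leptin, was not well above background on either array. The median of the 19 evaluated genes was 0.16, 7 were below 0, and the summed level was 22.2 in controls and 24.5 with BHPF. The part of attached fat was not tested.

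RNA of the liver, of muscle, of pancreas and of blood was looked for in the same way. Proteins secreted by the liver had a median of 0.15 over 19 genes, 0 called, with *Alb* at 0.52 and 1.04 and *Ttr* at −1.40 and −0.82. Their summed level was 17.0 in controls and 18.7 with BHPF. On the uterus arrays 19 of 20 such genes were called as higher, and the part of liver RNA in the uterus values given here was not tested. Skeletal muscle and pancreas and gut genes had medians of −0.05 each with 0 called, and red blood cell genes a median of −0.21 over 12 with 0 called. These ratios compare the ovary arrays and do not show that such RNA was absent. The pancreas gene *Cpa1* was at 1.14 and 1.20 in ovary, against −4.98 in control liver and −7.36 in control uterus. *Pnlip* and *Ctrb1* were also brighter in control ovary than in both, and *Cel* and *Amy2a5* were not. The part of pancreas RNA was not tested. Housekeeping genes had a median of 0.14 over 15, with *Gapdh* at 0.04 over 7 probes and *Actb* at 0.42.

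Among genes, 80 rose and 104 fell, while more probes were called higher than lower. By a bound, 128 probes were called higher and 64 lower. Among probes above background on both arrays, 156 were higher and 183 lower. With own values in place of bounds, 327 were higher and 622 lower. The direction of the probe counts thus depends on the bounds. *Zscan4f*, a zinc finger gene of cleavage-stage embryos, was at −6.04 in controls and −2.84 with BHPF, a 9.19-fold rise, and its log2 ratio was at least 3.15 in liver, where it was not well above background in controls, and −0.59 in uterus. The other 6 evaluated genes of cleavage-stage embryos lay between −0.29 and 0.45. *Gdpd3*, a lysophospholipase, was at −2.21 and −0.39, a 3.54-fold rise, with 0.05 in liver and −0.31 in uterus. *Mt4*, a metallothionein of stratified epithelia, rose from −6.11 to −4.46, *Dlx6*, a homeobox gene, from −4.90 to −3.31, and *Tdrd9*, a helicase of germ cells, from −3.57 to −2.08. *Col6a5*, a chain of collagen VI, rose from −3.29 to −1.87, and *Olfr705*, an odorant receptor, from −5.56 to −4.11. Most of these genes were dim, and *Marchf11*, *Olfr705* and *Col6a5* were under 2-fold when dim probes were kept (0.37, 0.34 and 0.87 as log2 ratios). By a bound, 31 genes rose on all their probes. *Olfr509*, an olfactory receptor at −1.18 with BHPF, rose at least 35.4-fold, *Crx*, a photoreceptor transcription factor at −3.66, at least 6.34-fold and *Il20ra*, a cytokine receptor subunit at −4.13, at least 4.57-fold. None of these 3 genes had a second evaluated probe to compare.

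**Figure D5:**
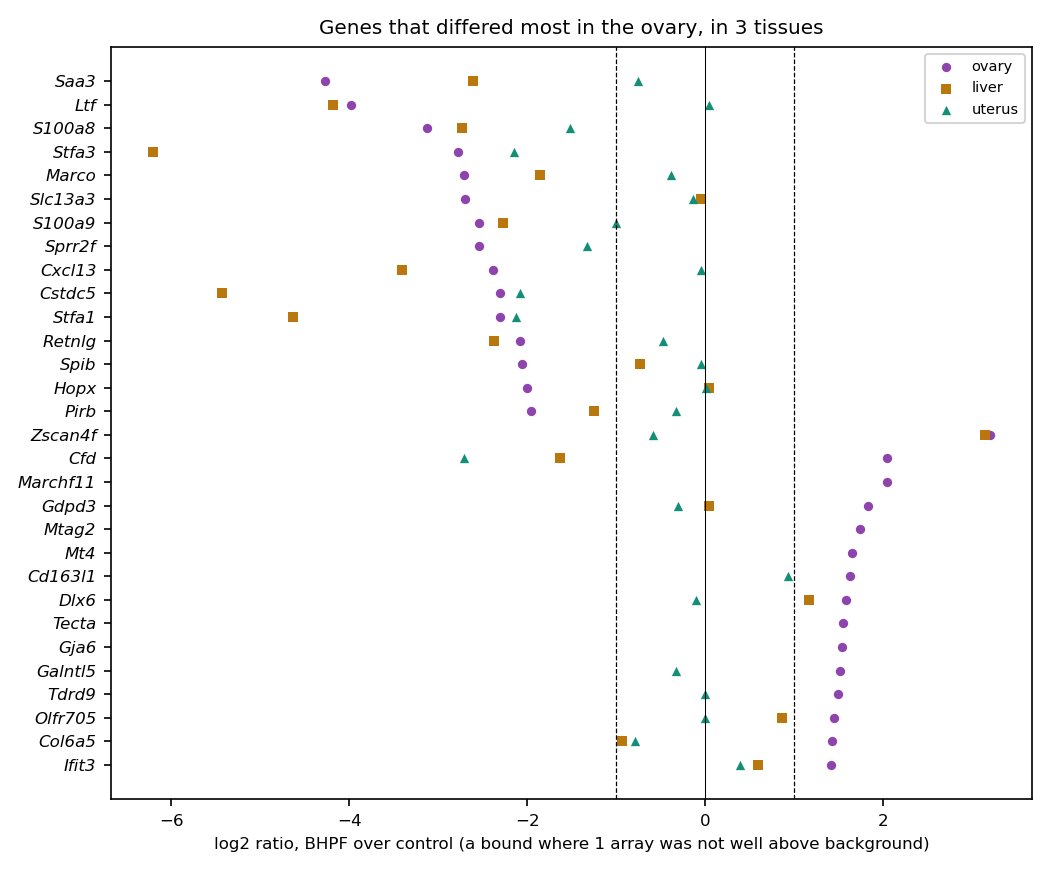
Log2 ratio (horizontal axis, BHPF over control) in ovary (purple circles), liver (orange squares) and uterus (green triangles) of the 15 genes with the largest fall and the 15 with the largest rise in the ovary by the same rule, with dashed lines at 2-fold and tissues left out where the gene was not well above background. *Saa3*, *Ltf* and *Cxcl13* lie below −2 in ovary and liver and between −0.76 and 0.04 in uterus, and *Slc13a3* and *Hopx* lie below −1 in the ovary alone.

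The largest falls of the ovary were set beside the same genes in liver and uterus, each with its own background. Of liver genes 4.74% were called, 3.2% higher and 1.54% lower, and of uterus genes 3.09%, 2.27% higher and 0.823% lower. *Cxcl13* had log2 ratios of −2.38 in ovary, −3.41 in liver and −0.05 in uterus, and *Ltf* had −3.98, −4.18 and 0.04. *Marco* had −2.71, −1.85 and −0.38. These 3 genes were lower in ovary and liver and within 2-fold in uterus. *S100a8* had −3.13, −2.73 and −1.52, and *Stfa3* −2.77, −6.21 and −2.15, lower in each tissue. *Ccl8*, at −1.63 in the ovary, was at 0.60 in liver and −0.40 in uterus, and *Fcgr4*, at −1.26, was at −0.29 and −0.21. Differences between tissues were not tested, since each tissue had 1 array per group.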

How the data were processed

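RNA was measured on 6 one-colour Agilent arrays, of which the 2 ovary arrays are reported. Per the file headers the authors read the scans with Feature Extraction 11.5.1.1 (9.1 in the submitters' processing notes). The deposited scanner intensity is linear, background-subtracted and detrended, with no normalization across arrays. A second deposited file holds log2 values from which the authors had subtracted 1 constant for each array, close to its 75th percentile.

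Without outlier spots, log2 intensities were averaged by probe and centred on each array's 75th percentile. A probe was evaluated if well above background on at least 1 ovary array. Accessions matched RefSeq symbols (GRCm38.p6) for 26762 of 55681 probes (48.1%), and evaluated probes of a symbol were averaged. Differences of at least 2-fold were called, with no test, as there was 1 array per group. Probe and gene shares carry no error between animals. Calculations used Python 3.11.15, R 4.3.3 and limma 3.58.1. Calling was tested on simulated data made from the control ovary array, in which only genes with bright probes were changed. This did not test the calling of dim genes or of bounds.

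The comparison and the 41 gene lists were chosen with earlier results of these data known. Named are the first 5 members of each list, up to 4 further members with the largest called differences, the 15 largest rises and falls (1 further gene with a predicted symbol was not named), up to 8 bounds in each direction, and the 5 genes whose probes differed most. Genes outside this rule were named after their values were seen. Some genes that the rule takes are not reported here. Alternatives were normexp background correction (offset 50), the 50th percentile, the 75th percentile of probes detected on all 6 arrays, quantile normalization, the authors' table, own values in place of bounds, both arrays above background, no filter on dim probes, the brightest probe of a gene and a 4-fold threshold.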

Additional observations from a re-analysis of the deposited data

Results flagged for a closer look

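*Cfd* rose in the ovary (log2 ratio 2.05) and was lower with BHPF in liver (−1.63) and uterus (−2.71), so that the ovary differed from the liver by 3.68 and from the uterus by 4.75 on the log2 scale. *Adipoq* rose in the ovary (1.35) and was lower in the uterus (−3.31), a difference of 4.66. *Saa2* rose in the ovary (1.13) and was lower in the liver (−1.15), a difference of 2.28. Each of these genes was at least 2-fold apart in opposite directions in 2 tissues, and the differences were not tested, with 1 array per group. The comparisons with the uterus rest on the labels of the scanner files, and with the headings of the deposited table the uterus values would change sign.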

How the results depend on the processing

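The number of ovary probes called was 531, with 53.5% higher. It was 949 (34.5% higher) with own values in place of bounds, 339 (46.0%) for probes above background on both arrays, 2066 (44.0%) without a filter on dim probes and 73 at 4-fold, and with normexp 60.5% were higher. The number of genes called was 184, with 43.5% higher. It was 307 (28.7% higher) with own values, 552 without the filter and 31 at 4-fold. The median of the neutrophil granule genes was −0.45, and −1.24 with own values or −1.06 without the filter. The other lists of the report's main comparisons moved by less than the noise between spots. Of 41 lists 9 moved by more under at least 1 setting. Only the stefin list had a median of a called size, and it kept its sign, between −2.31 and −1.16. Some medians close to 0 changed sign. That of the oestrogen-responsive genes lay between −0.04 and 0.07, and that of the T cell genes between −0.09 and 0.03. *Tspyl5* (4.36) was at −0.016 by its brightest probe. *Vmn2r3* (1.44) was at −0.013 by its brightest probe and at −0.013 by its probe above background on both arrays. Of 67 named genes that were called, 65 kept their direction and 53 stayed at least 2-fold under every setting that gave them a value. For 18 of the 67, called by bounds, the setting with both arrays above background gave none. The cause of these shifts was not tested, except that fewer or more probes entered where the filter changed. No paired analysis was possible because each group had 1 array. Depth limits dim genes, and the lowest intensity above background was higher on the BHPF array (120 against 93.3).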

Other observations

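Stress, clock and metabolic genes of the ovary lay near 0. Heat shock and unfolded protein response genes had a median log2 ratio of 0.07 over 21 genes and immediate early genes 0.00 over 23. Circadian clock genes had 0.00 over 19, cholesterol synthesis genes 0.04 over 24 and targets of the aryl hydrocarbon receptor and NRF2 −0.00 over 22. In each list 0 were called, against 1.09% of all genes. *Hspa5*, the chaperone of the endoplasmic reticulum, was at 2.86 and 2.88, and *Fos*, an immediate early transcription factor, at −0.33 and −0.35. *Cyp1b1*, a target of the aryl hydrocarbon receptor, was at 2.42 and 2.13. Retinoic acid genes had a median of 0.07 over 15, with *Cyp26b1*, which breaks down retinoic acid, from −2.86 to −2.25.

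Probes whose accession had no symbol in the RefSeq table were called slightly more often than the others and more of them were higher. Of 19591 evaluated, 275 were called and 174 of these were higher, against 110 of 256 for probes with a symbol. Among them, 10975 probes are named by a chromosome interval, of which 100 were higher and 56 lower.

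The probes of 1 gene disagreed by over 2 on the log2 scale for 5 of 4370 genes with at least 2 evaluated probes. The *Tspyl5* probes had intensities of 123 and 44835 in controls and with BHPF at one site, and of 3003 and 2531 at the other. *Vmn2r3*, *Cadm3*, *Chd2* and *Atat1* showed the same kind of disagreement, with 1 probe brighter on the BHPF array and the rest near or below their control intensity.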
